A study of Mus musculus with 6 samples.

Results

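Complex I, the NADH:ubiquinone oxidoreductase of the mitochondrial inner membrane, was followed across its genes in mouse bone marrow-derived macrophages. The members are all genes of the deposited table whose symbol is Nduf with a subunit or assembly-factor letter (a, b, c, s, v, ab or af), a number and at most 1 further letter, together with all genes whose symbol begins with mt-Nd. These are 57 of 55736 genes: 37 nuclear subunits, 8 assembly factors, 7 mitochondrially encoded subunits, Ndufa4, and 4 loci named as paralogues of subunits. Of these, 54 had at least 1 TPM (transcript abundance scaled to a fixed library total) in at least 3 of the 6 libraries and were tested, and the other 3 are all paralogue-named loci.

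RNA was sequenced from wild-type macrophages given 200 ng/ml lipopolysaccharide (LPS, a glycolipid of Gram-negative bacteria sensed by Toll-like receptor 4) for 24 h, in 3 libraries, and from wild-type control macrophages at 24 h, in 3 libraries. A further number, 500, stands in the titles of the LPS samples without an explanation. Whether the 3 libraries of a group are separate cultures or mice is not labelled, so the p-values below reflect only how these libraries vary, and that variation may be technical. The strain, age and sex of the mice are not in the labels used here.

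Complex I takes electrons from NADH at the N module, passes them along iron-sulfur clusters to ubiquinone at the Q module, and pumps protons through a membrane arm with a proximal and a distal part. Its catalytic core is encoded by both genomes: the membrane core by the mt-Nd genes of mitochondrial DNA, the peripheral core by nuclear genes. Accessory subunits surround the core, and assembly factors help build the enzyme without staying in it. In macrophages, LPS is known to shift energy metabolism towards glycolysis, and complex I is a known source of mitochondrial reactive oxygen species.

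The libraries were compared on TPM, a unit that keeps no read depth, and the depth behind each value is unknown. All 7 macrophage markers (Adgre1, Csf1r, Cd68, Itgam, Mertk, Fcgr1, Lyz2) were present in every library. Adgre1, Itgam, Fcgr1 and Lyz2 were higher and Csf1r, Cd68 and Mertk lower in LPS on TPM as deposited, where Csf1r (0.076) and Mertk (0.091) change sign and are not called after the median-of-ratios scaling described below. They summed to 35720 ± 1246 TPM in LPS libraries, against 26876 ± 838 TPM in control libraries (SD, n = 3 each), of which Lyz2 averaged 29245 TPM in LPS and 21394 TPM in control libraries. The 8 neutrophil markers summed to 84.1 ± 8.85 TPM in LPS and 5.12 ± 1.46 TPM in control libraries, most of it S100a8. S100a8 and Camp (mean 3.66 TPM in LPS and 0.0567 TPM in control libraries) were called higher in LPS. S100a9 averaged 0.543 TPM in LPS and 0.593 TPM in control libraries. The other 5 were under 1 TPM in every library, with Ly6g and Retnlg listed at 0 in all 6. The part of the neutrophil markers in the results was not tested. The 3 B cell, 3 T cell, 3 erythroid and 3 mast cell markers were each under 1 TPM in every library. Of the 6 dendritic cell markers 5 were under 1 TPM in every library, as were 2 of the 4 stromal markers. Of the other stromal markers Dcn was called higher in LPS (mean 1.42 TPM, against 0.0867 TPM in control libraries). Col1a1 was not called (mean 2.29 TPM in LPS and 2.69 TPM in control libraries). Saa3 and Fth1, an acute-phase gene and the ferritin heavy chain gene, took 17.6% ± 0.497 of all TPM in LPS libraries, against 2.02% ± 0.0964 in control libraries. Since TPM has a fixed total, such genes bear on all others. Over the 12440 tested genes the median difference, LPS minus control, was −0.44 on the log2(TPM + 1) scale. With Saa3 and Fth1 left out of the total it was −0.22 over 12564 tested genes. Changes are therefore also read against the median of −0.44, and after median-of-ratios scaling, which moved that median to 0.0010. The divisors of that scaling were 0.835 to 0.864 for LPS libraries and 1.18 to 1.22 for control libraries. Control library 2 stood apart from the other controls on the second principal component (3.56% of the variance), and counts are given without it below.

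All 7 mt-Nd transcripts were lower in LPS macrophages than in control macrophages. They are the core of the membrane arm: mt-Nd1 lies next to the ubiquinone site, mt-Nd2, mt-Nd4 and mt-Nd5 are the antiporter-like proton-pumping subunits, and mt-Nd3, mt-Nd4l and mt-Nd6 lie between them. The highest by its own TPM, mt-Nd1 (GRCm38, mitochondrial genome, 2751 to 3707, plus strand), had 1785, 1662 and 1598 TPM in LPS libraries 1 to 3, against 3598, 3731 and 3474 TPM in control libraries 1 to 3. Every LPS library was below every control library, and the mean was 1682 ± 95 TPM in LPS libraries, against 3601 ± 129 TPM in control libraries (SD, n = 3 each), or 0.467 of the control mean. The change was −1.10 on the log2(TPM + 1) scale (SE 0.0565, limma adjusted p = 2.04e-06). At the adjusted p limit of 0.05, 76.1% of the 12440 tested genes were called, with 16.3% higher in LPS and 59.8% lower, so a lower call alone is common here. The groups did not overlap in 78.6% of the tested genes, so separation of the groups alone is common as well. The median of the 7 changes, −1.25, lay 0.80 below the median of all tested genes.

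Among the antiporter-like subunits, mt-Nd2 (3914 to 4951, plus strand) had 663, 610.4 and 607 TPM in LPS libraries, against 1481, 1619 and 1379 TPM in control libraries. mt-Nd4 (10167 to 11544, plus strand) had 905, 834 and 776 TPM in LPS libraries, against 2187, 2401 and 1983 TPM in control libraries. mt-Nd5 (11742 to 13565, plus strand) had 810.0, 742 and 749.7 TPM in LPS libraries, against 1707, 1964 and 1637 TPM in control libraries. In each of these 3 genes control library 2 was the highest of all 6 libraries. The groups did not overlap in these 3 genes, as in 78.6% of all tested genes. The limma changes were −1.25 (SE 0.069, adjusted p = 3.04e-06) for mt-Nd2, −1.38 (SE 0.085, adjusted p = 5.24e-06) for mt-Nd4 and −1.20 (SE 0.076, adjusted p = 6.04e-06) for mt-Nd5.

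The 3 small subunits had the largest standard errors of the 7. mt-Nd3 (9459 to 9806, plus strand) had 234, 285 and 161 TPM in LPS libraries, against 476, 887 and 636 TPM in control libraries. mt-Nd4l (9877 to 10173, plus strand) had 355, 346 and 362 TPM in LPS libraries, against 956, 1097 and 1466 TPM in control libraries. mt-Nd6 (13552 to 14070), the one mRNA read from the other strand of the mitochondrial genome, had 617, 526 and 449 TPM in LPS libraries, against 1205, 1201 and 1047 TPM in control libraries. The groups did not overlap in any of the 3, as in 78.6% of all tested genes, although mt-Nd3 ranged widely within both groups. The limma changes were −1.54 (SE 0.27, adjusted p = 0.00131) for mt-Nd3, −1.70 (SE 0.14, adjusted p = 2.63e-05) for mt-Nd4l and −1.13 (SE 0.12, adjusted p = 8.41e-05) for mt-Nd6. After median-of-ratios scaling all 7 mt-Nd genes stayed lower, from −1.20 for mt-Nd4l to −0.60 for mt-Nd1, where 67.1% of all tested genes were called and 33.6% were lower. All 7 were also lower with control library 2 left out, where 58.1% of all tested genes were lower. For a single gene the exact permutation test (two-sided, 3 against 3) has p = 0.1 as its smallest value, which each of the 7 gave. In bulk libraries, fewer cells of a type and less RNA per cell cannot be told apart.

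**Figure D1:**
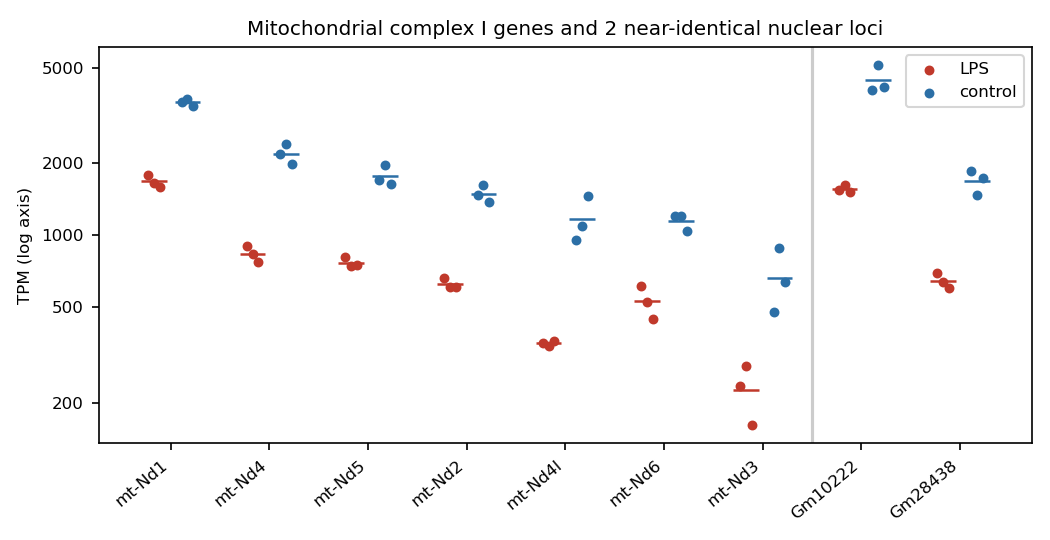
TPM (log axis) of the 7 mt-Nd genes and, right of the grey line, of the loci Gm10222 and Gm28438, in the 3 LPS libraries (red) and the 3 control libraries (blue); points are libraries and lines are means. Every LPS point lies below every control point of its gene, and Gm10222 and Gm28438 lie above mt-Nd4l and mt-Nd3 in both groups.

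Some mt-Nd genes have near-identical nuclear loci with high TPM, and the origin of that signal was not tested. Of the 7 mt-Nd transcripts, 4 had a near-identical annotated locus elsewhere (at least 95% identity over at least 50% of the transcript), and in mt-Nd3 and mt-Nd4l that locus held more TPM than the gene. Gm28438, an unprocessed pseudogene on chromosome 1 (GRCm38 chr1:24612775-24613119, minus strand), matched mt-Nd3 over 345 bases with 1 substitution, T3C, counted from 1 at the 5′ end of mt-Nd3. Gm10222, an unprocessed pseudogene beside it (chr1:24612407-24612700, minus strand), was identical to mt-Nd4l over all of its 294 bases. The starts of mt-Nd3 and of its copy are shown because they hold the only aligned base at which the pair differs, and the capital marks the differing base.
mt-Nd3, chrM:9459-9481, plus strand: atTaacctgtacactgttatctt
Gm28438, chr1:24613097-24613119, minus strand: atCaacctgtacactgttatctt

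Gm28438 had 699, 636 and 604 TPM in LPS libraries, against 1859.9, 1474 and 1736 TPM in control libraries, a change of −1.38 (SE 0.095, limma adjusted p = 9.42e-06). Gm10222 had 1549, 1627 and 1521 TPM in LPS libraries, against 4036, 5153 and 4184 TPM in control libraries, a change of −1.50 (SE 0.094, limma adjusted p = 5.71e-06). The division of reads shared by such pairs was not given in the sources used here, and the levels of mt-Nd3 and mt-Nd4l are uncertain on their own. Summed with its copy, mt-Nd3 reached 873 ± 93.3 TPM in LPS libraries, against 2357 ± 18.4 TPM in control libraries (SD, n = 3 each), and mt-Nd4l reached 1921 ± 47.1 TPM in LPS libraries, against 5631 ± 629 TPM in control libraries. The copies of mt-Nd4 (Gm28439) and mt-Nd5 (Gm4076), which cover 63.6% and 52.3% of their transcripts, were listed at 0 in all 6 libraries.

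Neighbouring mt-Nd genes also share bases. mt-Nd4l and mt-Nd4 overlap by 7 bases on the same strand, and mt-Nd5 and mt-Nd6 overlap by 14 bases at their ends on opposite strands. Use of strand in counting was not given in the sources used here. Reads within the 14 bases therefore cannot be told apart. The overlapping ends are shown 5′ to 3′ on the strand of each gene, with the shared bases in capitals.
mt-Nd4l end, chrM:10144-10173, plus strand: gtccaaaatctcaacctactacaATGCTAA
mt-Nd4 start, chrM:10167-10196, plus strand: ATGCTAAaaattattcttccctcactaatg
mt-Nd5 end, chrM:13536-13565, plus strand: attatcttatactcaaTTAATCTCGAGTAA
mt-Nd6 end, chrM:13552-13581, minus strand: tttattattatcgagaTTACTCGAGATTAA

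Set beside the nuclear subunits within each library, the mitochondrial share of complex I transcripts was lower in LPS macrophages. A ratio within a library does not depend on how libraries are scaled. Summed mt-Nd TPM was 5369, 5005 and 4703 in LPS libraries, against 11611, 12901 and 11623 in control libraries. Summed nuclear subunit TPM was 3902, 3894 and 3579 in LPS libraries, against 3858, 3258 and 3698 in control libraries. The mitochondrial sums did not overlap between groups, while the nuclear sums did. The ratio of mitochondrial to nuclear sums was 1.38, 1.29 and 1.31 in LPS libraries, against 3.01, 3.96 and 3.14 in control libraries, a difference of −1.34 on the log2 scale. With Gm28438 and Gm10222 added, it was 1.91 ± 0.0429 in LPS libraries, against 5.09 ± 0.787 in control libraries (SD, n = 3 each), a log2 difference of −1.40. Against the 7 core nuclear subunits alone the ratio was 9.12 ± 0.413 in LPS and 19.7 ± 1.69 in control libraries. Relative to the other 6 mRNAs of the mitochondrial genome, mt-Nd TPM stood at 0.320, 0.295 and 0.291 in LPS libraries, against 0.325, 0.332 and 0.297 in control libraries, and these ranges overlapped. With the near-identical loci added on both sides it stood at 0.269, 0.262 and 0.255 in LPS libraries, against 0.295, 0.311 and 0.286 in control libraries, and the ranges no longer overlapped.

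**Figure D2:**
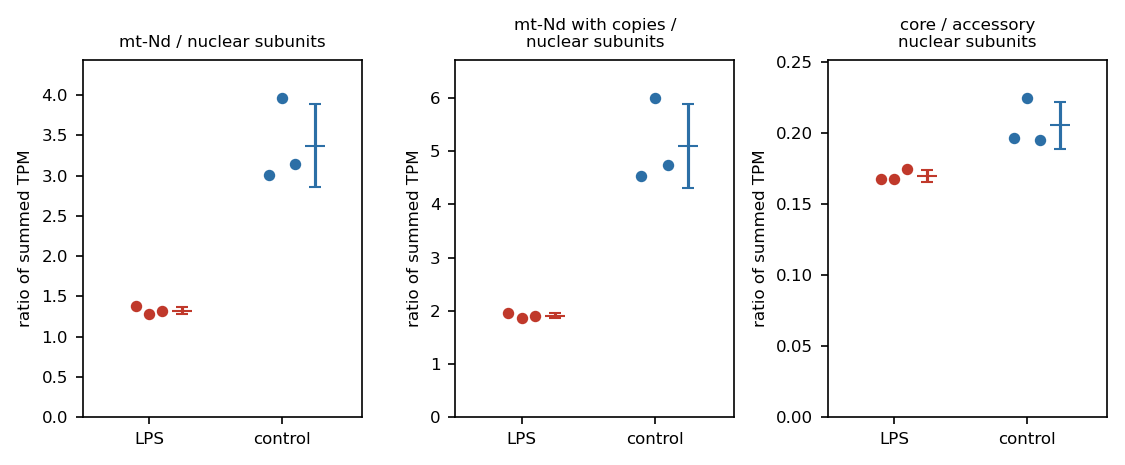
Ratios of summed TPM within each library, LPS (red) left of control (blue): mt-Nd genes to nuclear subunits, the same with Gm28438 and Gm10222 added, and core to accessory nuclear subunits. Points are libraries, bars are mean ± SD of 3 libraries; in all 3 panels the LPS points lie below the control points.

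Of the 37 nuclear subunits, 11 were higher in LPS macrophages (29.7%, against 16.3% of all tested genes), 7 were lower (18.9%, against 59.8%) and 19 did not pass the test, and after median-of-ratios scaling 32 were higher and 0 were lower, where 33.5% of all tested genes were higher. Without control library 2 the counts were 10 higher and 8 lower, where 74.2% of all tested genes were called, 16.2% higher and 58.1% lower. The changes ran from −0.55 to 0.80 with a median of 0.088, which lay 0.53 above the median of all tested genes, and 35 of the 37 lay above that median. The groups did not overlap in 17 subunits (45.9%), against 78.6% of all tested genes. Median-of-ratios scaling raises every LPS value and lowers every control value, and a change can therefore only move up under it.

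**Figure D3:**
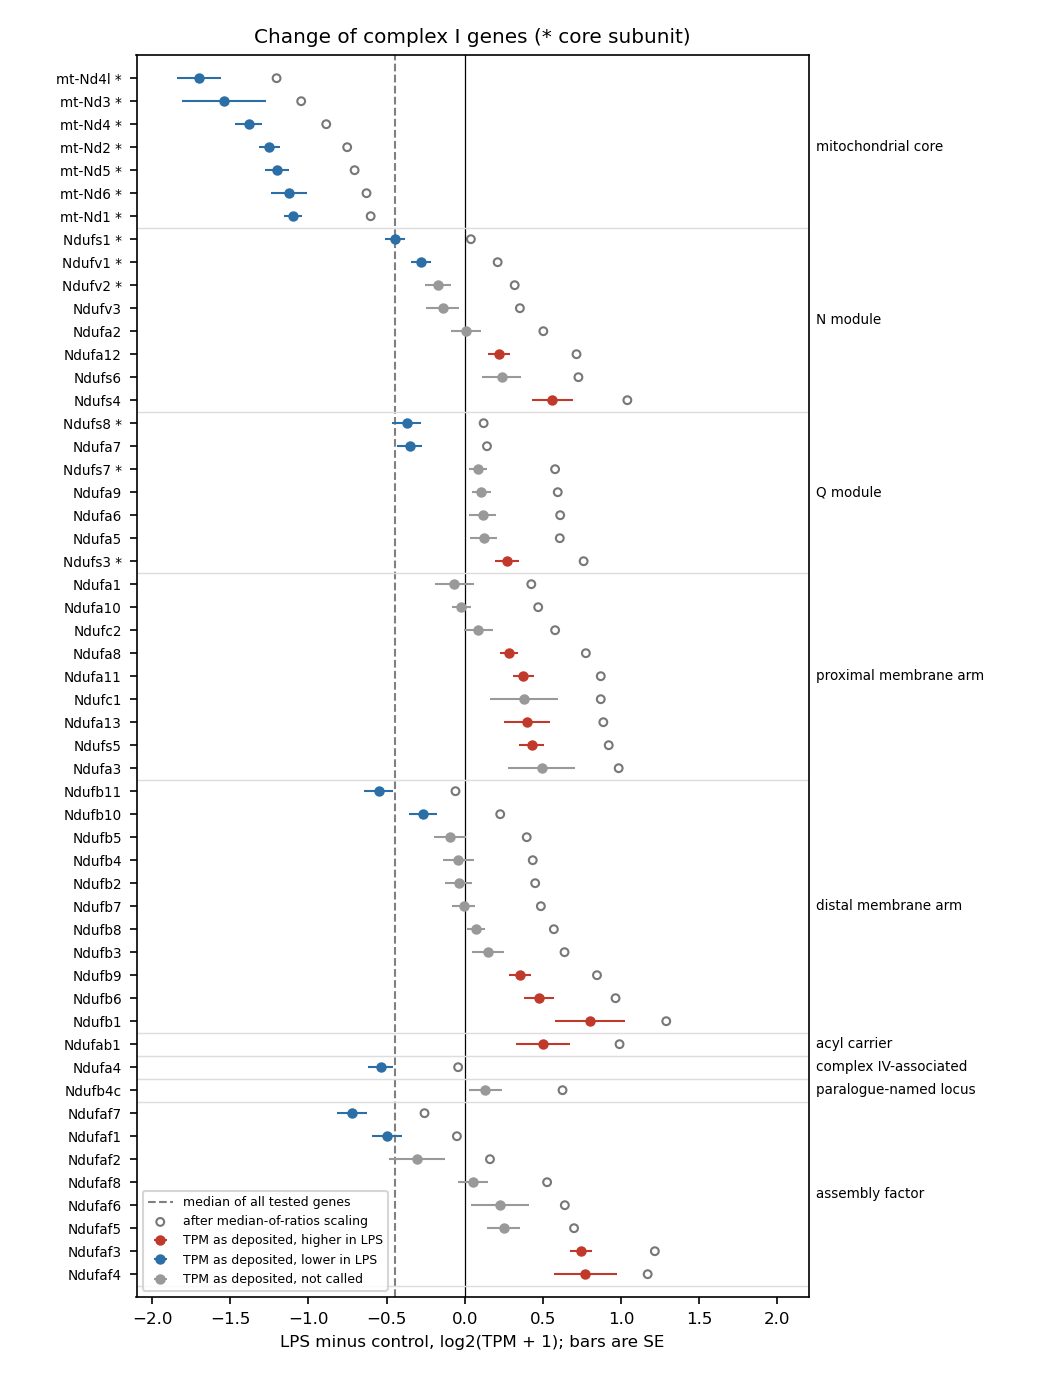
Change of the tested complex I genes, 1 core nuclear subunit left out (LPS minus control, log2(TPM + 1), bars are SE), grouped by role, with filled points for TPM as deposited (red higher, blue lower, grey not called) and open points after median-of-ratios scaling; asterisks mark core subunits and the dashed line is the median of all tested genes, −0.44. The 7 mt-Nd genes lie left of the dashed line, and the nuclear subunits shown lie right of it except Ndufb11 and Ndufs1.

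The 7 core nuclear subunits hold the flavin, the iron-sulfur clusters and most of the ubiquinone site. Ndufs1, the large iron-sulfur subunit of the N module, had 34.9, 36.3 and 36.1 TPM in LPS libraries, against 48.3, 53.2 and 46.1 TPM in control libraries. It was lower in every LPS library (−0.45, SE 0.065, limma adjusted p = 0.000511), and after median-of-ratios scaling its change was 0.040 (adjusted p = 0.551). Ndufv1, which binds NADH and the flavin, had 53.2, 54.7 and 59.6 TPM in LPS libraries, against 68.4, 64.3 and 71.1 TPM in control libraries. Its change of −0.28 (SE 0.064, limma adjusted p = 0.00526) turned to 0.21 (adjusted p = 0.0216) after that scaling. Ndufv2, its iron-sulfur partner, had 64.0, 60.9 and 55.4 TPM in LPS libraries, against 74.3, 67.3 and 62.0 TPM in control libraries. The Ndufv2 groups overlapped (−0.17, limma adjusted p = 0.0999), and it passed as lower without control library 3 (−0.23, adjusted p = 0.0426) but as higher once libraries were scaled by median of ratios (0.32, adjusted p = 0.0156).

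In the Q module, Ndufs8, which carries iron-sulfur clusters, had 79.9, 76.6 and 64.0 TPM in LPS libraries, against 98.9, 87.8 and 98.5 TPM in control libraries. Its groups did not overlap on TPM as deposited (−0.37, SE 0.093, limma adjusted p = 0.00808), and after median-of-ratios scaling it had 0.12 (adjusted p = 0.354). Ndufs3 had 87.2, 95.1 and 88.2 TPM in LPS libraries, against 79.9, 66.7 and 77.9 TPM in control libraries. It rose on TPM as deposited (0.27, SE 0.078, limma adjusted p = 0.0154), though not without LPS library 2 (0.23, adjusted p = 0.0552). Ndufs7, which carries the last iron-sulfur cluster before ubiquinone, had 120, 118 and 115 TPM in LPS libraries, against 114, 116 and 103 TPM in control libraries. The Ndufs7 groups overlapped on TPM as deposited (0.085, limma adjusted p = 0.208). After median-of-ratios scaling limma called both Ndufs3 (0.76, adjusted p = 0.000247) and Ndufs7 (0.58, adjusted p = 7.38e-05) higher.

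**Figure D4:**
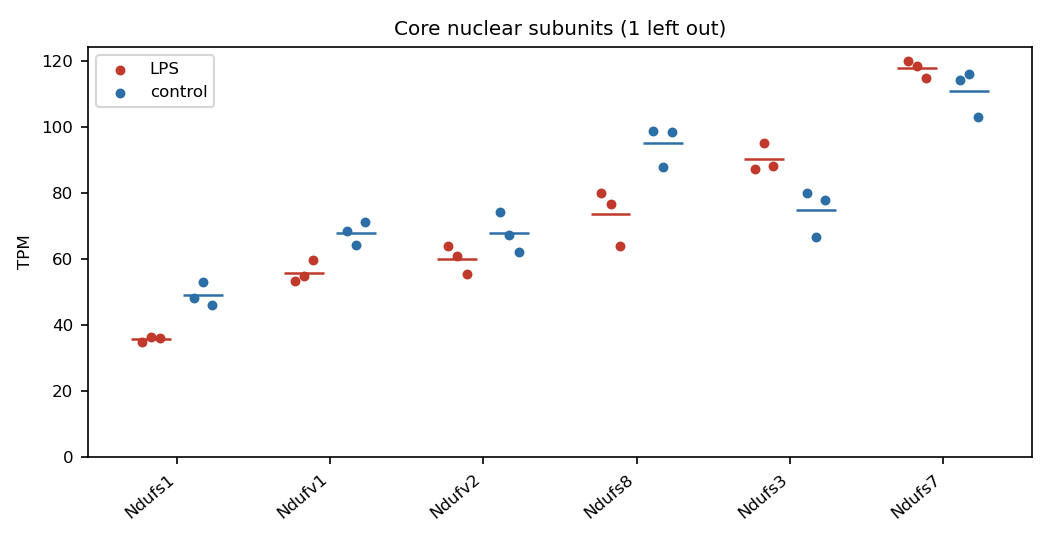
TPM of core nuclear subunits (1 of the 7 is left out) in the 3 LPS libraries (red) and the 3 control libraries (blue); points are libraries and lines are means. On TPM as deposited Ndufs1, Ndufv1 and Ndufs8 lie lower in LPS, where all 3 change sign after median-of-ratios scaling, and Ndufs3 lies higher.

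Of the 30 accessory subunits, 10 were higher (33.3%, against 16.3% of all tested genes), 3 were lower (10%, against 59.8%) and 17 did not pass on TPM as deposited. After median-of-ratios scaling 27 were higher (90%, against 33.5% of all tested genes) and 0 were lower. Summed TPM of the core to that of the accessory nuclear subunits was 0.167, 0.168 and 0.175 in LPS libraries, against 0.196, 0.224 and 0.195 in control libraries, without overlap. By position, the proximal membrane arm had 4 of 9 accessory subunits higher and 0 lower, with a median change of 0.38. The distal arm had 3 of 11 higher and 2 lower (median −0.0074), the N module 2 of 5 higher and 0 lower (median 0.22) and the Q module 0 of 4 higher and 1 lower (median 0.11). After median-of-ratios scaling 9 of 9 were higher in the proximal arm, 9 of 11 in the distal arm, 5 of 5 in the N module and 3 of 4 in the Q module, and 0 were lower. Differences between the modules were not tested.

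The accessory subunits with the largest rises were Ndufb1, Ndufs4, Ndufab1 and Ndufb6. Ndufb1, of the distal arm, had 77.3, 82.4 and 57.4 TPM in LPS libraries, against 54.3, 29.9 and 41.2 TPM in control libraries (0.80, SE 0.22, limma adjusted p = 0.0128). Its lowest LPS library stood just above its highest control library, and GENCODE gives the locus as a bidirectional promoter lncRNA. Ndufs4, at the edge of the N module and known in humans for mutations that cause Leigh syndrome, had 34.0, 42.6 and 28.8 TPM in LPS libraries, against 24.4, 21.9 and 23.3 TPM in control libraries (0.56, SE 0.13, limma adjusted p = 0.00627). Ndufab1, the mitochondrial acyl carrier protein, had 92.9, 96.6 and 106 TPM in LPS libraries, against 90.2, 53.1 and 69.6 TPM in control libraries (0.50, SE 0.17, limma adjusted p = 0.0327). Control library 1 nearly reached the LPS range of Ndufab1, and its call was lost on leaving out any of 5 libraries, with adjusted p-values of 0.0529, 0.0681 and 0.098 without LPS libraries 1, 2 and 3, 0.0547 without control library 2 and 0.0714 without control library 3. Ndufb6, a distal arm subunit, had 70.2, 70.9 and 68.2 TPM in LPS libraries, against 53.4, 42.4 and 54.8 TPM in control libraries (0.48, SE 0.097, limma adjusted p = 0.00297).

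The other higher accessory subunits were Ndufa12, Ndufa8, Ndufb9, Ndufa11, Ndufa13 and Ndufs5, with changes of 0.22, 0.28, 0.35, 0.38, 0.40 and 0.43. Of these, Ndufa12 lost its call without LPS library 1 (adjusted p = 0.073), and Ndufa13 without LPS library 1, 2 or 3 (adjusted p = 0.0915, 0.104 and 0.0572). The 3 falls were in Ndufb11, Ndufa7 and Ndufb10. Ndufb11, of the distal arm, had 73.3, 70.9 and 62.3 TPM in LPS libraries, against 113, 91.3 and 99.6 TPM in control libraries (−0.55, SE 0.095, limma adjusted p = 0.00125). Its groups did not overlap, and after median-of-ratios scaling its change was −0.059 (adjusted p = 0.652). Ndufa7, of the Q module, had 144, 159.7 and 138 TPM in LPS libraries, against 201, 171 and 193 TPM in control libraries (−0.35, SE 0.079, limma adjusted p = 0.00473), a change of 0.14 after scaling. Ndufb10, of the distal arm, had 116, 138 and 112 TPM in LPS libraries, against 151.5, 136 and 153 TPM in control libraries. The Ndufb10 groups overlapped (−0.27, SE 0.089, limma adjusted p = 0.0273), the sign turned after scaling (0.23), and the call was lost without LPS library 1 or 3 or control library 1 or 3 (adjusted p = 0.0852, 0.0857, 0.0758 and 0.0817).

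Subunits that did not pass ran from −0.17 for Ndufv2 to 0.49 for Ndufa3, whose LPS libraries (178, 111 and 122 TPM) overlapped the control libraries (115, 73.9 and 101 TPM). Of these, Ndufv3 passed without control library 2 (−0.26, adjusted p = 0.00654), Ndufc1 without control library 1 (0.63, adjusted p = 0.00433), Ndufb8 without control library 1 (0.13, adjusted p = 0.0446) and Ndufb3 without control library 3 (0.25, adjusted p = 0.0345). Ndufa3 passed without LPS library 2 (0.63, adjusted p = 0.046) or control library 1 (0.63, adjusted p = 0.0405).

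The nuclear subunits differed widely in level. Ndufb8 was the highest nuclear subunit in both groups, at 226 ± 4.14 TPM in LPS and 215 ± 15.3 TPM in control libraries, and Ndufb4 was the lowest, at 22.3 ± 2.04 TPM in LPS and 23.0 ± 2.48 TPM in control libraries. The SD of log2 TPM over the 37 subunits was 0.757 in LPS and 0.796 in control libraries, averaged over libraries. The largest drop in rank was in Ndufb11, which stood at 28 in LPS and 15 in control libraries, and Ndufa7 stood at 8 in LPS and 2 in control libraries. The shortest transcripts moved differently in control library 2: its 15 nuclear subunits of 700 bases or less lay at a median of −0.25 from the other controls, against −0.093 for the 8 over 1500 bases. The same contrast over all tested genes was −0.064 for 841 short genes and 0.059 for 9516 long ones. In both sets of genes shorter transcripts also had higher changes, with a Spearman correlation of length and change of −0.24 over the 37 subunits and −0.12 over all 12440 genes. These points share the same 6 libraries, and the part of transcript length in the result was not tested.

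Promoters of the nuclear subunits were searched for the letters GCGCATG, a core of the NRF1 motif, and CGGAAG, an ETS and GABP core, on both strands, in RefSeq windows of 250 bases before to 50 bases after the gene start. NRF1 and GABP are known regulators of nuclear genes for the respiratory chain. Of 37 subunits 33 matched the table, and 5 of them (15.2%) held GCGCATG, against 4.04% of 27025 promoters of all genes. These were Ndufa6, Ndufa8, Ndufa11, Ndufb6 and Ndufb8, of which 3 were higher in LPS on TPM as deposited and the others not called. Of the 33 subunits with a promoter 10 were higher, and of all tested genes 16.3%. After median-of-ratios scaling all 5 were higher, as were 32 of the 37 subunits and 33.5% of all tested genes. A link between these letters and the changes was not tested. CGGAAG was in 8 of 33 (24.2%), against 17.2% of all promoters, and in 4 of the 10 higher and 1 of the 5 lower subunits with a promoter. The 27025 promoters were not limited to tested genes and were not matched to the subunits for base content. The promoter of Ndufb6, which rose, and that of Ndufb11, which fell on TPM as deposited, are shown as a pair with and without these letters, chosen after their values were seen. Capitals mark the motif letters (CTTCCG is CGGAAG read on the other strand), and no capital means that neither string is in the window. A match is a description of the letters and not of binding.
Ndufb6, GRCm38.p6, chr4:40279372-40279671, minus strand: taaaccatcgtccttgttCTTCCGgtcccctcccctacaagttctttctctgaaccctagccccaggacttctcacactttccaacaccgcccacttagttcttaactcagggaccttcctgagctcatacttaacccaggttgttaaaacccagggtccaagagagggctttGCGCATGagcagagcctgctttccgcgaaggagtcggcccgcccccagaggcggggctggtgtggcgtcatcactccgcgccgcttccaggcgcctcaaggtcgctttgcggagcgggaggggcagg
Ndufb11, GRCm38.p6, chrX:20617570-20617869, minus strand: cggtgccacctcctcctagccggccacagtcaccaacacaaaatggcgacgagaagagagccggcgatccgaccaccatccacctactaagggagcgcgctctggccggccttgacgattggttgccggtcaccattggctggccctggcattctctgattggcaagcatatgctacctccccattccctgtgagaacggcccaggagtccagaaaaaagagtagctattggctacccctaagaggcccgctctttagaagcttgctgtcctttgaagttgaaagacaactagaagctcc

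Ndufa4 carries a complex I name but is known as a subunit of complex IV. It had 229, 239.9 and 211 TPM in LPS libraries, against 342, 295 and 353 TPM in control libraries. Every LPS library lay below every control library (−0.54, SE 0.080, limma adjusted p = 0.000584), but this was not called after median-of-ratios scaling (−0.042, adjusted p = 0.72). AA467197, whose human counterpart encodes a paralogue that can take the place of NDUFA4 in complex IV, had 7.35, 9.93 and 9.85 TPM in LPS libraries, against 1.40, 1.53 and 1.65 TPM in control libraries. It rose by 1.98 (SE 0.13, limma adjusted p = 8.03e-06) and by 2.35 after scaling, with no overlap between groups. In the same LPS libraries Ndufa4 held 226.6 ± 14.5 TPM against 9.04 ± 1.47 TPM of AA467197, so the Ndufa4 transcript remained the more abundant. Ndufa4l2, a related gene that the naming rule does not take in, was listed at 0 in all 6 libraries.

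Of the 8 assembly factors 2 were higher (25%, against 16.3% of all tested genes), 2 were lower (25%, against 59.8%) and 4 did not pass, with a median change of 0.14. After median-of-ratios scaling 5 were higher and 1 was lower, where 33.5% and 33.6% of all tested genes were called. Without control library 2 the counts were 2 higher and 3 lower, where 16.2% and 58.1% were called. Ndufaf3, which acts in Q module and membrane assembly, had 25.1, 25.04 and 28.0 TPM in LPS libraries, against 15.5, 15.4 and 14.6 TPM in control libraries (0.74, SE 0.070, limma adjusted p = 4.77e-05). Its partner Ndufaf4 had 6.78, 5.39 and 5.93 TPM in LPS libraries, against 3.06, 4.44 and 2.13 TPM in control libraries (0.77, SE 0.20, limma adjusted p = 0.0099). Both rose without overlap between groups, and they rose further after scaling, by 1.22 and 1.17. Ndufaf7, a methyltransferase of the mitochondrial matrix, had 11.4, 9.36 and 11.9 TPM in LPS libraries, against 19.3, 18.4 and 17.9 TPM in control libraries. It fell on TPM as deposited (−0.72, SE 0.098, limma adjusted p = 0.000358) and after scaling (−0.26, adjusted p = 0.0415). Ndufaf1, which acts in membrane arm assembly, had 8.13, 7.11 and 6.90 TPM in LPS libraries, against 10.7, 9.96 and 11.9 TPM in control libraries (−0.50, SE 0.098, limma adjusted p = 0.00256). Its groups did not overlap, though after scaling its change was −0.050 (adjusted p = 0.696).

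The remaining factors were not called on all libraries on TPM as deposited. After median-of-ratios scaling limma called Ndufaf5 (0.70, adjusted p = 0.0014), Ndufaf6 (0.64, adjusted p = 0.017) and Ndufaf8 (0.53, adjusted p = 0.0041) higher. Ndufaf2 was not called there (0.16, limma adjusted p = 0.489), where 33.5% of all tested genes were higher. Ndufaf5, which hydroxylates Ndufs7, had 10.8, 12.0 and 9.28 TPM in LPS libraries, against 9.17, 8.20 and 8.99 TPM in control libraries (0.25, limma adjusted p = 0.0641), and it passed without LPS library 3 (0.34, adjusted p = 0.02). Ndufaf2, an N module factor, had 12.1, 16.5 and 12.1 TPM in LPS libraries, against 19.9, 12.95 and 18.5 TPM in control libraries (−0.30, limma adjusted p = 0.162). It was lower without control library 2 (−0.48, adjusted p = 0.0236). Ndufaf6 had 4.96, 4.99 and 8.49 TPM in LPS libraries, against 4.91, 4.96 and 5.05 TPM in control libraries (0.22, limma adjusted p = 0.304). On TPM as deposited LPS library 3 therefore carried the higher Ndufaf6 mean. Ndufaf8 had 21.8, 21.2 and 20.7 TPM in LPS libraries, against 21.1, 17.6 and 23.0 TPM in control libraries (0.053, limma adjusted p = 0.642), and the sign turned without control library 2 (−0.049).

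**Figure D5:**
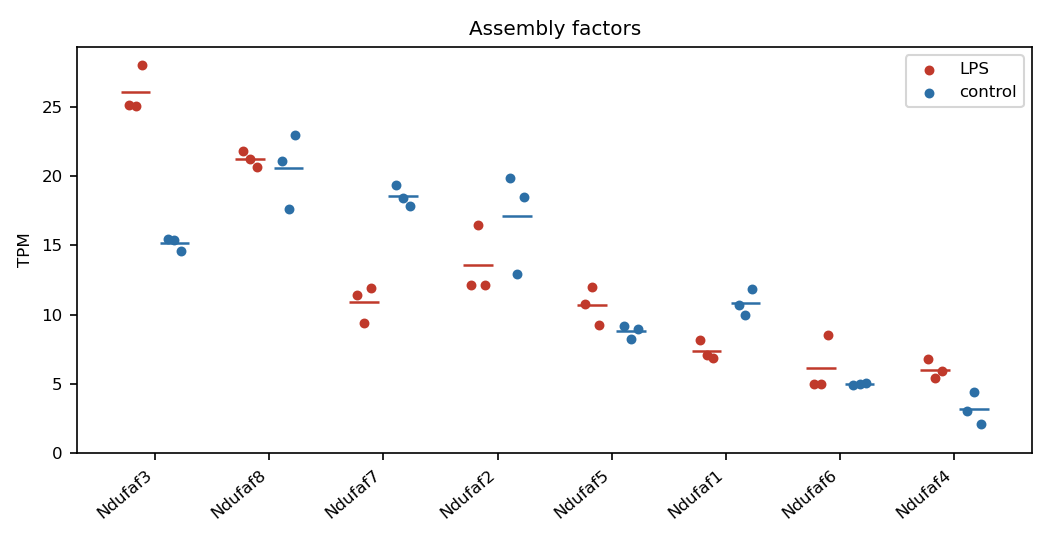
TPM of the 8 assembly factors in the 3 LPS libraries (red) and the 3 control libraries (blue); points are libraries and lines are means. Ndufaf3 and Ndufaf4 lie higher and Ndufaf7 and Ndufaf1 lower in LPS without overlap on TPM as deposited; after median-of-ratios scaling Ndufaf1 was not called.

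The 4 paralogue-named loci gave little signal apart from Ndufb4c. Ndufb11b was listed at 0 in 5 libraries and at 0.30 TPM in LPS library 3, and Ndufa11b and Ndufs6b were listed at 0 in all 6. Ndufb4c, a processed pseudogene whose 390 bases are all identical to Ndufb4, had 137, 117.5 and 116 TPM in LPS libraries, against 126, 115 and 97.8 TPM in control libraries (0.13, limma adjusted p = 0.284). It held more TPM than Ndufb4 itself in every library, and the pair summed to 145.7 ± 12.2 TPM in LPS libraries, against 135.7 ± 11.6 TPM in control libraries (SD, n = 3 each), so the low rank of Ndufb4 is uncertain.

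Of 13 listed complex I genes with other names 12 were tested. Of these 1 was higher (8.33%, against 16.3% of all tested genes), 9 were lower (75%, against 59.8%) and 2 did not pass. Their median change was −0.43, near the −0.44 of all tested genes. After median-of-ratios scaling 2 were higher and 4 were lower, where 33.5% and 33.6% of all tested genes were called. On the log2(TPM + 1) scale the largest falls were in Dmac2, a distal membrane arm factor, with 16.0 ± 0.907 TPM in LPS and 33.5 ± 1.33 TPM in control libraries (−1.02, limma adjusted p = 7.24e-06), and Oxa1l, the inner membrane insertase, with 26.7 ± 1.46 TPM in LPS and 51.2 ± 3.78 TPM in control libraries (−0.91, limma adjusted p = 2.14e-05). Both stayed lower after scaling (−0.54 and −0.43). That scale understates low genes, and as a share of the control mean Sfxn4, at 0.457 ± 0.237 TPM in LPS and 1.64 ± 0.342 TPM in control libraries, fell further, to 0.278, against 0.48 for Dmac2. Ecsit, an assembly factor also known in Toll-like receptor signalling, was the 1 that rose, with 12.1, 12.4 and 14.1 TPM in LPS libraries, against 9.32, 7.90 and 8.45 TPM in control libraries (0.54, SE 0.094, limma adjusted p = 0.00136).

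Genes for transcription, replication and RNA maturation in mitochondria, with their nuclear regulators, gave 29 tested of 32 listed. Of these 6 were higher (20.7%, against 16.3% of all tested genes), 13 were lower (44.8%, against 59.8%) and 10 did not pass. After median-of-ratios scaling 10 were higher and 5 were lower, where 33.5% and 33.6% of all tested genes were called. Polg, the mitochondrial DNA polymerase, had 23.4 ± 2.05 TPM in LPS and 45.8 ± 1.45 TPM in control libraries (−0.94, limma adjusted p = 1.97e-05). Gabpa, the DNA-binding subunit of GABP, had 12.3 ± 0.981 TPM in LPS and 23.7 ± 2.15 TPM in control libraries (−0.89, limma adjusted p = 7.79e-05). Both stayed lower after scaling. As a share of the control mean Twnk (0.483) and Polg2 (0.507) fell slightly further than Polg (0.511) and Gabpa (0.52). Esrra, a nuclear receptor that drives respiratory genes, had 59.3 ± 2.8 TPM in LPS and 27.1 ± 1.5 TPM in control libraries, and rose by 1.11 (limma adjusted p = 3.75e-06). Its coactivator gene Ppargc1b had 3.43 ± 0.354 TPM in LPS and 1.06 ± 0.144 TPM in control libraries, and rose by 1.10 (limma adjusted p = 0.000104). Divided by the control mean, the LPS mean was 3.24 for Ppargc1b and 2.19 for Esrra.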

How the data were processed

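RNA sequencing of 6 libraries was analysed from a gene table whose TPM values the authors deposited, each library scaled to 1000000 TPM within 0.75 TPM. Bowtie 0.12.2, mm8 and mm9 appear in the submitters' processing notes, with no role stated. Quantifier, annotation and strandedness were not given in the sources used here. The gene lengths are the authors' deposited values, in bases. All 57 members were found by identifier in GENCODE M21 (GRCm38), from which coordinates and the mitochondrial and chromosome 1 sequences come; promoters come from RefSeq (GRCm38.p6). TPM keeps no depth, so no counting error can be given.

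The filter kept the 12440 genes that reached 1 TPM in 3 or more libraries. Their log2(TPM + 1) values were fitted in R 4.3.3 with limma 3.58.1 (trended eBayes), taking LPS minus control. Two-sided p-values were adjusted by Benjamini-Hochberg over all 12440, with a limit of 0.05. The scale understates changes of low genes. The fit was tested on simulated data. Groups follow the sample titles. Scaling, filter, pseudocount, replicate block and leaving out each library were alternatives, 15 in all. Near-identical loci were found with BLAST+ 2.17.0 (at least 95% identity, 50% of the transcript and 100 bases). The text names all mt-Nd genes, core subunits (1 enters the counts and sums but is not reported here on its own) and assembly factors, Ndufa4 with 2 relatives, the 4 largest rises and falls of the other nuclear subunits that passed (3 falls passed), and the 2 largest of each in the lists of other complex I genes (1 rise passed) and mitochondrial transcription genes. Rises and falls were ranked for that rule by change on the log2(TPM + 1) scale. Subunits whose call changed without 1 library, Saa3, Fth1, Sfxn4, Twnk, Polg2 and the near-identical loci are named beside that rule, chosen after their values were seen. The same holds for the markers S100a8, S100a9, Camp, Dcn and Col1a1. Members and lists were chosen with earlier results of these data known. Roles were assigned from textbook knowledge.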

Additional observations from a re-analysis of the deposited data

How the results depend on the processing

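The 7 mt-Nd genes were lower and past the limit under all 15 alternatives. The ratio of mt-Nd to nuclear subunit TPM differed by −1.42 to −1.11 on the log2 scale over its alternatives, −1.11 being against core subunits alone, and by −1.41 to −1.22 with 1 library left out. The ratio of mt-Nd to other mitochondrial mRNAs differed by −0.072, by −0.18 with near-identical loci added on both sides, and by −0.12 to −0.040 with 1 library left out. Adding near-identical loci was chosen after seeing the data.

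Counts of nuclear genes depended on the scaling. Median-of-ratios and upper-quartile scaling divide control libraries by more than LPS libraries, as does leaving Saa3 and Fth1 out of the total. Median-of-ratios, upper-quartile and quantile scaling called 4167, 3543 and 4029 of all tested genes higher and 4181, 4875 and 4257 lower. For the nuclear subunits these gave 32, 26 and 21 higher and 0, 0 and 3 lower. Leaving Saa3 and Fth1 out of the total gave 24 higher and 2 lower, where 2968 of 12564 tested genes were higher and 5787 lower. For assembly factors the same 4 settings gave 5, 5, 5 and 4 higher, and the first 3 gave 1, 1 and 0 lower. For other complex I genes they gave 2 higher each and 4, 5, 2 and 5 lower. For mitochondrial transcription genes median-of-ratios and quantile scaling gave 10 and 13 higher, and median-of-ratios, upper-quartile and quantile scaling gave 5, 7 and 2 lower.

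Relative to all tested genes, the median of nuclear subunits was 0.19 without a filter on low values and 0.32 after quantile normalization, where the main value was 0.53. That of assembly factors (main value 0.58) was 0.64 with a pseudocount of 0.1, 0.24 without a filter, 0.68 after quantile normalization and 0.49 to 0.63 with 1 library left out. That of mt-Nd genes (main value −0.80) was −1.15 without a filter and −1.05 after quantile normalization. Without a filter the median of 23958 genes was −0.10, since genes near 0 enter.

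With 1 library left out, nuclear subunits had 8 to 14 higher and 6 to 8 lower, and assembly factors 2 to 3 of each. The same fits called 1899 to 2012 of all 12440 tested genes higher and 7051 to 7260 lower. Among the genes named by the rule above 19 alternative values changed sign. Genes named beside that rule, such as Ndufv3, are not in this count. After median-of-ratios scaling Ndufs1 had 0.040, Ndufs8 0.12, Ndufv1 0.21, Ndufv2 0.32, Ndufaf2 0.16, Ndufa7 0.14 and Ndufb10 0.23. After upper-quartile scaling Ndufs8 had 0.0049, Ndufv1 0.095, Ndufv2 0.20, Ndufaf2 0.052, Ndufa7 0.0255 and Ndufb10 0.11. After quantile normalization Ndufv1 had 0.0082, Ndufv2 0.095, Ndufaf1 0.0855 and Ndufaf2 0.22. Ndufv2 had 0.077 with Saa3 and Fth1 left out. With 1 library left out Ndufaf8 ran from −0.0485, without control library 2, to 0.13.

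Whether equal replicate numbers mark pairs of libraries is not labelled. Same-numbered libraries correlated at 0.074, −0.15 and 0.076 in their deviations from the group means, and differently numbered libraries at −0.19 to 0.12. With 3 libraries a group these values do not settle whether the libraries are paired. With the replicate number as a block, 12 nuclear subunits were higher and 7 lower, and 1993 of all tested genes were higher and 7304 lower. Under the block Ndufb10 missed the limit (adjusted p = 0.0612), and Ndufv2 (0.0346) and Ndufa3 (0.00377) passed it. TPM keeps no depth, so the precision of low genes such as Ndufaf4 and AA467197 is unknown, and 3 libraries a group limit every test.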

Other observations

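Of the other 6 mRNAs of the mitochondrial genome, for complexes III, IV and V, limma called 5 lower in LPS libraries on TPM as deposited and 4 after median-of-ratios scaling. Of all tested genes 59.8% were lower on TPM as deposited and 33.6% after that scaling. mt-Cytb, the mitochondrial subunit of complex III, had 1319 ± 41.2 TPM in LPS libraries, against 3713 ± 92.6 TPM in control libraries (SD, n = 3 each; −1.49, limma adjusted p = 1.54e-07). mt-Co3, of complex IV, was not called: it had 0.28, 238 and 0.28 TPM in LPS libraries, against 185, 0.36 and 811 TPM in control libraries. Its near-identical locus Gm28437 held a mean of 3366 TPM in LPS and 7481 TPM in control libraries, and the division of shared reads was not given in the sources used here. The value of mt-Co3 therefore cannot be read alone. The same holds for mt-Atp6, called lower, whose near-identical locus Gm10925 held a mean of 2316 TPM in LPS and 5224 TPM in control libraries, while the gene itself averaged 165 TPM in LPS and 667 TPM in control libraries. It also holds for mt-Co2, whose near-identical loci held a mean of 5104 TPM in LPS and 10074 TPM in control libraries, while the gene itself averaged 85.5 TPM in LPS and 290 TPM in control libraries.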
